A study of Mus musculus with 23 samples.

Results

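Aortas of mice kept in chronic intermittent hypoxia (CIH) for 12 weeks were compared with aortas of mice kept in CIH for 8 weeks and then in normoxia for 4 weeks. The groups (CIH 12W for the former, CIH 8W+Nor 4W for the latter) differed in the last 4 weeks only, and they held 8 of the 23 arrays of the study, 4 in each. Every mouse was a male ApoE-/- mouse of the C57BL/6J strain on a high-fat diet, 8 weeks old at the start, so that both groups lacked apolipoprotein E, a model of atherosclerosis. The other 15 arrays held 5 aortas each from mice in normoxia for 8 weeks (Nor 8W), in CIH for 8 weeks (CIH 8W) and in normoxia for 12 weeks (Nor 12W), and their levels are given for orientation only. In CIH the inspired oxygen was lowered and restored in short cycles while the mice slept, as a model of sleep apnea. The arrays were chosen by their titles. The genes described here lie outside the circadian clock, the cytosolic chaperones and the chaperones of the endoplasmic reticulum (ER). Exceptions are marked where they occur.

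Proteins for the matrix and the cell surface are made at the ER. A dolichol-linked sugar tree is built on its membrane, moved by the oligosaccharyltransferase to the growing chain, trimmed while the chain folds, and read by lectins that hold, export or discard the product. Collagen needs further enzymes there, which hydroxylate proline and lysine before the chains leave the cell. In the wall of the aorta, smooth muscle cells and fibroblasts carry out most of this work.

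Each value was a log2 signal of 1 probe set on a Clariom D array, and 65956 gene-level probe sets were tested. Between 27.3% and 35.9% of them lay above the 95th percentile of background probe sets on an array. The arrays were labelled aorta, and the smooth muscle list of 24 genes stood at 14.08 ± 0.04 with continued CIH and 14.08 ± 0.12 after recovery (mean level ± SD, n = 4 each). A list of 24 adipocyte genes stood at 9.96 ± 0.38 and 10.25 ± 0.34, so adipocyte transcripts were present in both groups. The labels gave neither a batch nor a date of hybridization, and the hour at which aortas were taken was not stated. In whole tissue, fewer cells of a type and less RNA per cell cannot be told apart.

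A probe set was called when its fold change was over 1.1 and its limma p was under 0.05. With continued CIH, 1606 probe sets (2.43%) were called higher and 2569 (3.9%) lower than after recovery, together 6.33%, of which 38.5% were higher. That split turned with the scaling: it was 67.8% higher when each array was centred on its median, 49.0% after quantile normalization and 64.7% among probe sets above background. At an unadjusted p under 0.05 stood 6.84% of the probe sets, whatever their fold. After Benjamini-Hochberg adjustment 12 probe sets (0.0182%) stayed under 0.05, 6 in each direction, and this count ran from 0 to 33 when 1 array was left out. Of 30106 genes, each taken at its brightest probe set, 890 (2.96%) were called higher and 1031 (3.42%) lower, with a median log2 difference of -0.02. Of 19096 protein-coding genes, 714 (3.74%) were called higher and 514 (2.69%) lower. There were 19385 protein-coding probe sets with 1 symbol. Outside the clock and the chaperones, 396 of them above background were called higher with groups that did not overlap and 131 were called lower. This split was not counted under another scaling. Among all probe sets, 5.1% had groups that did not overlap (2.35% higher and 2.75% lower), and among all genes 3.44% lay wholly higher and 2.98% wholly lower.

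Of the 12 probe sets past the adjusted threshold, 9 carried 1 gene symbol, and 7 of those lay outside the clock and the chaperones. Haus8 and Mboat1 were higher in CIH 12W, as were Slc45a3 and the pseudogene Gm3436, while Coq10b, Cdc25b and 1810013L24Rik were lower. Haus8 (chromosome 8) encodes a subunit of augmin, the complex that branches microtubules in the mitotic spindle. Its log2 signal was 7.09, 7.11, 7.38 and 7.20 in CIH 12W and 6.57, 6.35, 6.04 and 6.21 in CIH 8W+Nor 4W. All 4 aortas with continued CIH lay above all 4 with recovery, by 1.87-fold (log2 difference 0.90 ± 0.13 SE, limma adjusted p = 0.0208). The mean was 6.10 ± 0.22, 6.09 ± 0.21 and 6.15 ± 0.17 in Nor 8W, CIH 8W and Nor 12W (SD, n = 5 each), and no array of those groups read above 6.47.

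Mboat1 (chromosome 13), an acyltransferase that puts fatty acids back on lysophospholipids, read 6.31, 6.75, 7.07 and 6.81 in CIH 12W and 5.58, 5.85, 5.75 and 6.01 after recovery. The groups did not overlap, and the fold was 1.91 (log2 difference 0.94 ± 0.16, adjusted p = 0.0497). Nor 8W, CIH 8W and Nor 12W stood between the groups, with means of 6.24, 6.25 and 6.19. Slc45a3 (chromosome 1), a transporter of the SLC45 family, read 5.36, 5.40, 5.40 and 5.50 in CIH 12W and 5.22, 5.08, 5.08 and 5.05 after recovery. The difference was small, 1.24-fold (log2 0.31 ± 0.05, limma adjusted p = 0.0478), and near background, with 3 of the 4 recovered arrays above it. Here the recovered aortas lay below the means of the other groups, 5.35 to 5.39. Gm3436 (chromosome 9), a pseudogene whose signal cannot be told apart from that of related genes, was 1.71-fold higher with groups that did not overlap (adjusted p = 0.0478).

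Coq10b (chromosome 1), a mitochondrial protein that binds coenzyme Q, read 8.67, 8.76, 8.70 and 9.25 in CIH 12W and 9.87, 9.56, 9.83 and 9.51 in CIH 8W+Nor 4W. The groups did not overlap, although replicate 4 of CIH 12W lay above its 3 neighbours. The gene was 1.80-fold lower with continued CIH (log2 difference -0.85 ± 0.13, adjusted p = 0.0291), and the means of 8.52, 8.79 and 8.88 in Nor 8W, CIH 8W and Nor 12W lay nearer to CIH 12W than to the recovered aortas. Cdc25b (chromosome 2), the phosphatase that switches on cyclin-dependent kinases before mitosis, read 5.45, 5.24, 5.58 and 5.11 in CIH 12W and 5.98, 5.79, 5.89 and 5.75 after recovery. It was 1.42-fold lower without overlap (log2 difference -0.51 ± 0.09, adjusted p = 0.0478). 1810013L24Rik (chromosome 16), for which no role is given here, was read by a pair of probe sets. Both were lower with continued CIH, by 0.77 ± 0.13 (limma adjusted p = 0.0478) and by 0.61 ± 0.12 (adjusted p = 0.103) on the log2 scale. The first had means of 9.74, 9.84 and 9.79 in Nor 8W, CIH 8W and Nor 12W. These means lay nearer to CIH 12W (9.67) than to the recovered aortas (10.44). The remaining probe sets past the threshold were a clock gene, an ER chaperone and 3 sets without a symbol. Of those 3, TC0300002489.mm.1 was not well above background on any CIH 12W array or on the fourth recovered one. It read 6.75, 7.21, 5.78 and 5.01 after recovery, at least 2.4-fold lower with continued CIH (limma adjusted p = 0.0208). TC0700002868.mm.1 (log2 -0.44) and TC0900000622.mm.1 (log2 0.68) were not above background on any array of the 5 groups.

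**Figure D1:**
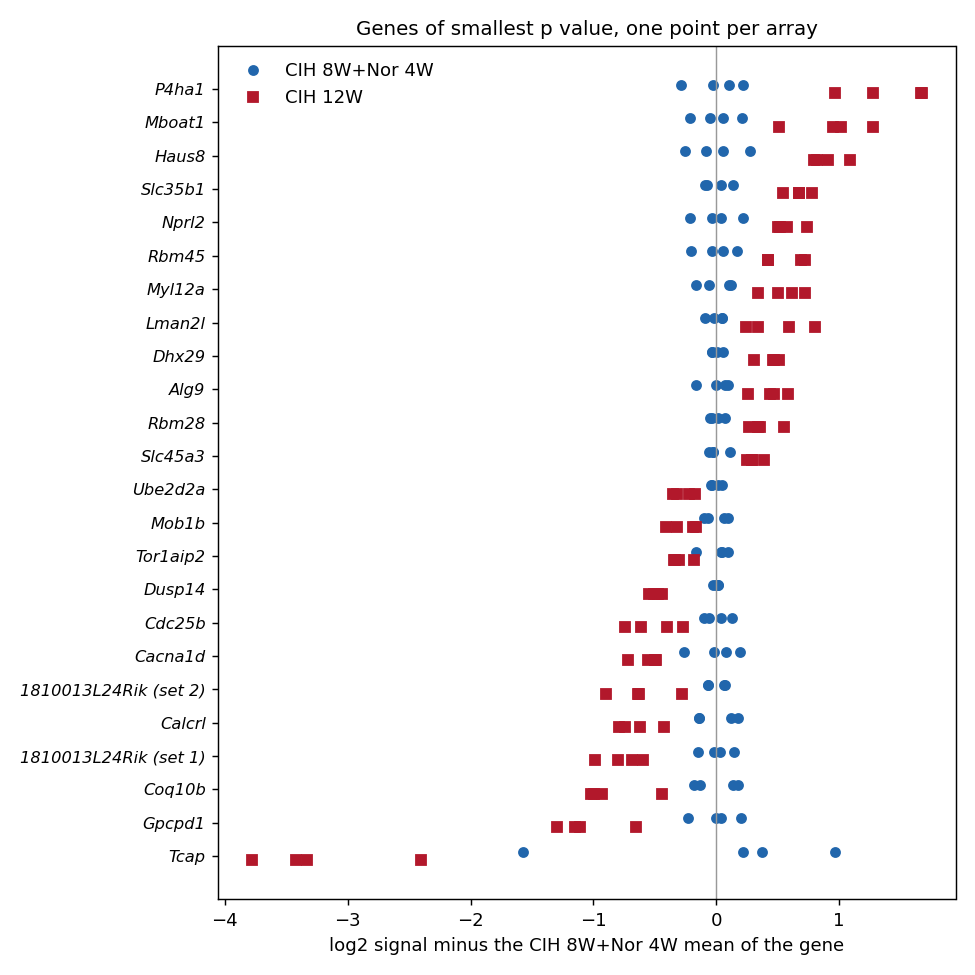
The 12 higher and 12 lower protein-coding probe sets with the smallest p values among those above background and without overlap, 1 row each, with the log2 signal of every array minus the CIH 8W+Nor 4W mean on the x axis (squares, CIH 12W, n = 4; circles, CIH 8W+Nor 4W, n = 4). P4ha1 lay highest, at a difference of 1.39, and Tcap lowest, at -3.23, with the widest spread among the recovered aortas.

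Of the lists outside the clock and the chaperones, ER glycosylation had the largest share of higher genes. Its list holds Alg9, Slc35b1 and Lman2l, already seen among the 12 higher genes of smallest p. The rank therefore follows in part from how the list was made and is not a test. Among 58 measured genes of N-glycan assembly and trimming, a list drawn up after the values were seen, 19 (32.8%) were called higher and 0 lower, and 47 had a positive difference. The median log2 difference was 0.14, against -0.02 over all genes, of which 2.96% were called higher. Of all 30106 genes, 12556 had a positive difference. All genes were dimmer, with a mean signal of 5.74 on the 8 arrays, against 8.92 for the list. Calls leaned higher without dim probe sets (64.7%), so the comparison is not between genes of like brightness. The part of brightness in the list's share was not tested. The list's mean level was 8.966, 9.029, 8.997 and 9.058 in CIH 12W and 8.903, 8.786, 8.812 and 8.832 after recovery, so that all 4 aortas with continued CIH lay above all 4 recovered ones. The means were 8.72 ± 0.10, 8.81 ± 0.07 and 8.88 ± 0.06 in Nor 8W, CIH 8W and Nor 12W. The count of higher genes ran from 14 to 20 when 1 array was left out and from 13 to 23 under the other settings, with 0 lower throughout. None of the 19 reached an adjusted p under 0.05, their folds lay between 1.12 and 1.72, and 11 of them were called whichever array was left out.

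Early in the route, the ER mannosyltransferases Alg9 and Alg12, which extend the lipid-linked sugar tree, were both higher. Alg9 (chromosome 9) read 6.46, 6.61, 6.28 and 6.49 in CIH 12W and 6.02, 5.86, 6.09 and 6.12 after recovery, without overlap (1.35-fold, log2 difference 0.44 ± 0.08, adjusted p = 0.0669). Alg12 (chromosome 15) read 9.01, 8.68, 8.59 and 8.91 against 8.36, 8.19, 8.17 and 8.03, again without overlap (1.53-fold, log2 0.61 ± 0.15, adjusted p = 0.244). Slc35b1 (chromosome 11), which carries ATP into the ER, read 10.78, 10.88, 10.65 and 10.78 against 10.24, 10.03, 10.01 and 10.14. Its groups did not overlap, the fold was 1.59 (log2 0.67 ± 0.12, adjusted p = 0.0784), and the highest array of the further groups read 10.44, below the lowest CIH 12W value. Alg8, a glucosyltransferase of the same tree, was called as well (log2 0.44), but not when the third CIH 8W+Nor 4W array was left out (log2 0.36).

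In the oligosaccharyltransferase, which moves the sugar tree to the protein, Magt1, Rpn1, Stt3a and Ostc were higher. Magt1, a subunit of the complex, read 11.62, 11.95, 11.61 and 12.25 in CIH 12W and 11.15, 11.16, 10.95 and 11.03 after recovery. This was the largest difference of the list, 1.72-fold (log2 0.79 ± 0.16, adjusted p = 0.150), and the groups did not overlap. Rpn1 (ribophorin I) read 13.69, 13.72, 13.76 and 13.61 against 13.28, 13.18, 13.18 and 13.17, a tight separation in both groups (1.41-fold, log2 0.49 ± 0.12, adjusted p = 0.244). Ostc overlapped between the groups and lost its call without the third or the fourth CIH 12W array or the third CIH 8W+Nor 4W array, with log2 differences of 0.45 to 0.63 as single arrays were left out.

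Of the enzymes that trim and inspect the sugars after transfer, Prkcsh, Uggt1, Man1b1 and Ganab (the catalytic subunit of glucosidase II, lost under 5 of 8 arrays left out) were called, and Mogs, Uggt2, Man1a, Man1a2 and Man2a1 were not. Prkcsh (the beta subunit of glucosidase II) was 1.35-fold higher, Uggt1 (which puts glucose back on misfolded chains) 1.30-fold and Man1b1 (a mannosidase that marks chains for removal) 1.25-fold, each without overlap and called whichever array was left out. Man1b1 had the lowest adjusted p of these, 0.150, from 7.60, 7.44, 7.59 and 7.57 in CIH 12W against 7.38, 7.19, 7.21 and 7.13. The export lectins Lman2 and Lman2l, which pick up glycoproteins, were 1.34-fold and 1.41-fold higher. Lman2l read 6.03, 6.59, 6.13 and 6.38 against 5.84, 5.77, 5.84 and 5.70, so the recovered aortas were uniform and the CIH 12W aortas spread above them (log2 0.49 ± 0.10, adjusted p = 0.103).

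**Figure D2:**
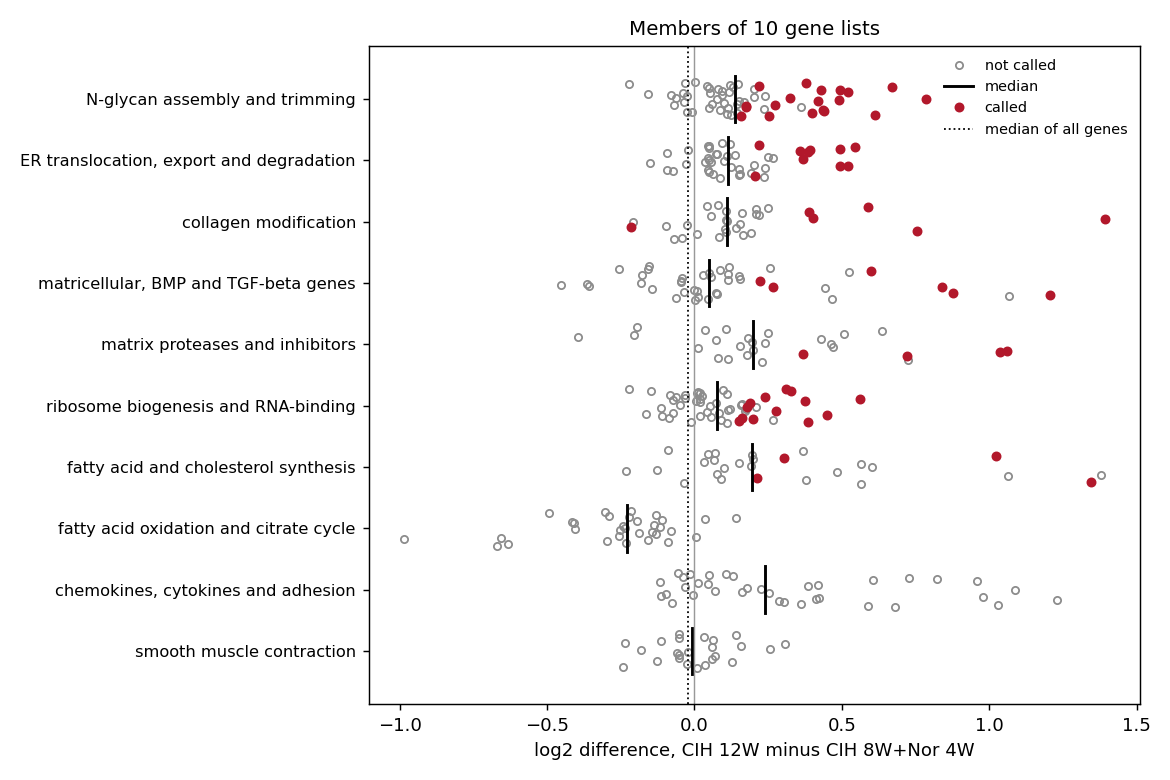
Log2 difference of each measured member of 10 gene lists (x axis, CIH 12W minus CIH 8W+Nor 4W; filled points, called; open points, not called; bars, list medians; dotted line, the median of all genes at -0.02). The N-glycan genes have 19 filled points on the right and 0 on the left, whereas the 24 smooth muscle genes have none.

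Of 44 measured genes for protein entry into the ER, exit from it and degradation at it, 10 (22.7%) were called higher, 0 lower and 34 not called, 38 had a positive difference, and the median was 0.12. With the N-glycan list 9 members are shared, of which Rpn1, Stt3a and Ostc were called. Ssr2, a subunit of the translocon-associated complex, read 13.26, 13.30, 13.49 and 13.32 in CIH 12W and 12.82, 12.88, 12.60 and 12.90 after recovery (1.46-fold, log2 0.54 ± 0.13, adjusted p = 0.248), without overlap. Sel1l, the adaptor of the ubiquitin ligase that clears misfolded ER proteins, read 12.47, 12.47, 12.26 and 12.50 against 12.18, 12.00, 11.98 and 11.99. Sec23b, a coat protein of vesicles that leave the ER, read 9.53, 9.56, 9.60 and 9.68 against 9.28, 9.26, 9.07 and 9.29. Neither gene overlapped between the groups, with folds of 1.31 and 1.29 and adjusted p values of 0.476 and 0.563. Only 4 of the 10 (Ssr2, Rpn1, Sel1l and Sec23b) were called whichever array was left out, and the count of higher members then ran from 6 to 9.

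Xbp1, the transcription factor that drives many secretory genes in the unfolded protein response, was listed here among plasma cell genes. It read 12.15, 12.27, 12.14 and 12.10 in CIH 12W and 11.73, 11.54, 11.36 and 11.42 after recovery. The groups did not overlap (1.57-fold, log2 0.65 ± 0.18, adjusted p = 0.386). The other 17 measured B cell and plasma cell genes were not called, and their median with Xbp1 was -0.06. Genes of the ATF4 arm and of amino acid supply gave few calls: 1 of 23 was called higher (Shmt2, the mitochondrial serine hydroxymethyltransferase, lost under 3 of 8 arrays left out) and 1 lower (Chac1, not well above background on any of the 8 arrays), with a median of 0.07. Of 31 proteasome genes, 0 were called higher and 2 lower (Psme4, log2 -0.30, and Psmd7, log2 -0.27, the latter lost under 5 of 8 arrays left out).

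Promoter letters were read for these genes from RefSeq (build GRCm38.p6), over the 250 bases before the start site. The ER stress element (CCAAT, then 9 bases, then CCACG, on either strand) was searched before the called secretory genes, a motif added after the values were seen. It stood before 35 of 27025 genes (0.13%). Of the 19 N-glycan genes called higher, 17 had a promoter in the table and 1 held the element, Alg12. Of the 10 called genes of ER entry, exit and degradation, 6 had a promoter and 0 held it. Of the 11 promoters of ER chaperones called higher, 6 did. ER chaperones that were not called were not counted, so this share does not bear on the calls. Alg12 is shown with the chaperone gene Hspa5 for comparison, and Coq10b is shown for its clock-type motifs. Capitals mark the elements, and the 5′ end is on the left.
Alg12 (chr15:88819319-88819568, minus strand): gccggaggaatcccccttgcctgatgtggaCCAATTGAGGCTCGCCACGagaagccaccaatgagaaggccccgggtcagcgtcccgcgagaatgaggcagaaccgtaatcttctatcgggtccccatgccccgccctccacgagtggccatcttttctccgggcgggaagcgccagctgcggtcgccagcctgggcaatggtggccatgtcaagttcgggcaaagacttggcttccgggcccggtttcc
Hspa5 (chr2:34771840-34772089, plus strand): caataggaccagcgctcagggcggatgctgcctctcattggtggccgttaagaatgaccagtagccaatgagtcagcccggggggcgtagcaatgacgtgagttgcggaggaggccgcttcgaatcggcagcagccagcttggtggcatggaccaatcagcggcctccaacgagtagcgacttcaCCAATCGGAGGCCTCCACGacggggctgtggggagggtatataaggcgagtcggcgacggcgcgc
Coq10b (chr1:55052520-55052769, plus strand): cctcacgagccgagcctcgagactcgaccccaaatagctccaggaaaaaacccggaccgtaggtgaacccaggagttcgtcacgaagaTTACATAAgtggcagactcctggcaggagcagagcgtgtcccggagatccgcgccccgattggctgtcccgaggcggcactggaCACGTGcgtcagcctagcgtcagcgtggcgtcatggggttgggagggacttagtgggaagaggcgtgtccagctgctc
The first base of the element lay at -220 from the start in Alg12 and at -65 in Hspa5. In Coq10b the capitals mark a D-box (TTATGTAA, here as its reverse complement) and, nearer to the start, an E-box (CACGTG), which stood before 0.977% and 6.86% of all genes. Of the 12 higher protein-coding genes with the smallest p, 1 held an E-box (Myl12a), 0 a D-box, 2 a heat shock element core (GAANNTTC), 0 a cAMP response element (TGACGTCA) and 2 a nuclear receptor motif (AGGTCA). Of the 11 lower genes, 8 had a promoter, of which 2 held an E-box (Coq10b and Mob1b) and 1 a D-box. The nuclear receptor motif and the heat shock core stood before 15.8% and 7.73% of all genes. A match is a description of letters and not of binding.

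P4ha1 (chromosome 10), the catalytic subunit of collagen prolyl 4-hydroxylase, was also higher with continued CIH. Its log2 signal was 12.10, 12.49, 11.79 and 12.50 in CIH 12W and 10.93, 10.54, 11.04 and 10.80 after recovery. All aortas with continued CIH lay above the recovered ones, and the fold was 2.63 (log2 difference 1.39 ± 0.28, limma adjusted p = 0.107). The mean was 10.37 ± 0.69, 10.46 ± 0.36 and 11.15 ± 0.15 in Nor 8W, CIH 8W and Nor 12W. P4ha2, its sister subunit, read 7.22, 7.41, 7.43 and 7.39 against 7.12, 6.85, 6.98 and 6.89, without overlap (1.32-fold, adjusted p = 0.602). Of 30 genes of collagen modification, a list drawn up after the values were seen, 5 (16.7%) were called higher and 1 lower. Higher were P4ha1, P4ha2, Plod1, Lox and the collagen chaperone Serpinh1. Serpinh1 is 1 of 3 members shared with the excluded ER chaperone list. Lower was Loxl4, above background on 3 of the 8 arrays. The list's median was 0.11, and its mean level was 9.78 ± 0.03 in CIH 12W and 9.60 ± 0.07 after recovery. Plod1, a lysyl hydroxylase, was 1.31-fold higher but was not called without the second CIH 8W+Nor 4W array, Serpinh1 not without the fourth CIH 12W array, and Lox, which crosslinks collagen and elastin, not without any 1 of 5 arrays.

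**Figure D3:**
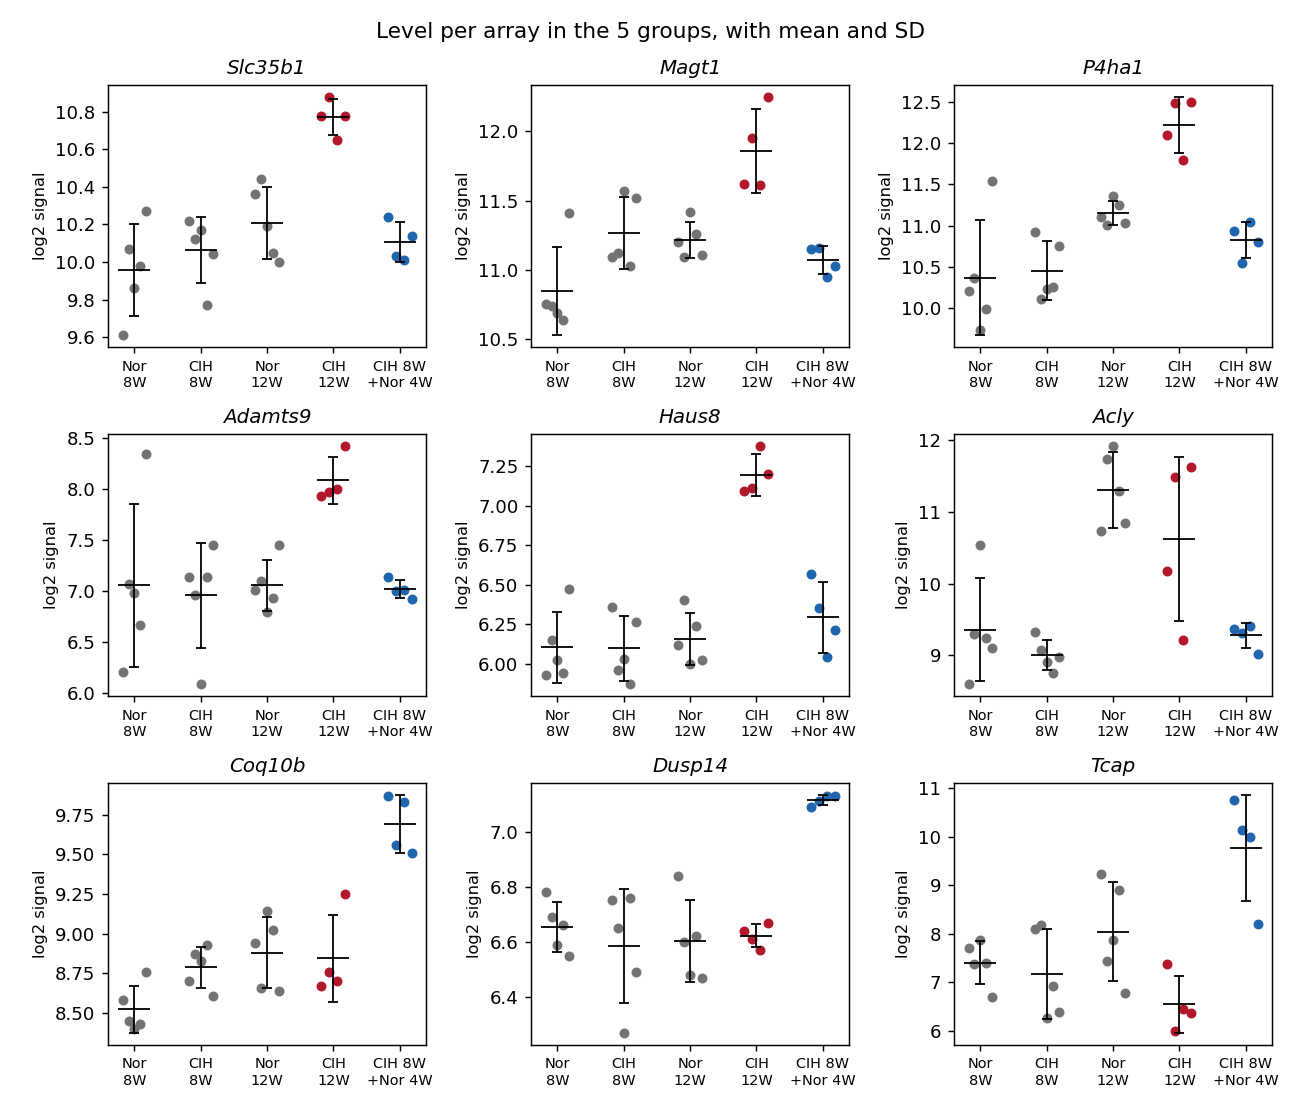
Log2 signal of 9 genes in every array of the 5 groups (points, arrays; bars, mean and SD; n = 5 in Nor 8W, CIH 8W and Nor 12W, and n = 4 in the others). Slc35b1 and Haus8 are highest in CIH 12W, Coq10b and Dusp14 are highest in CIH 8W+Nor 4W, and the CIH 12W arrays of Acly span 9.22 to 11.62.

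The collagens themselves gave fewer calls. Of 34 extracellular matrix genes, 2 (5.88%) were called higher (Lox and Eln) and 1 lower, with a median of 0.06, and Col1a1 and Fn1 had log2 differences of 0.04 ± 0.22 and 0.02 ± 0.21. Eln, the gene of elastin, read 14.64, 14.77, 15.25 and 14.66 in CIH 12W and 14.69, 14.24, 13.50 and 14.25 after recovery, with overlap, and was not called once any 1 of 6 arrays was left out. Of 41 matricellular, BMP and TGF-beta genes, 6 (14.6%, against 2.96% of all genes) were called higher and 0 lower. These were Ccn2, Ccn5, Tgfb3, Fstl1, Fstl3 and Inhbb, with a list median of 0.05. Ccn2 (connective tissue growth factor) read 15.16, 16.00, 15.66 and 16.25 against 14.26, 14.25, 14.55 and 15.21. It was 2.30-fold higher (log2 1.20 ± 0.32, adjusted p = 0.325), and only the fourth recovered aorta reached the CIH 12W range. Ccn5, a family member that restrains smooth muscle growth in culture, read 11.28, 10.94, 10.94 and 10.92 against 10.55, 10.18, 9.72 and 10.12, without overlap (1.84-fold, adjusted p = 0.476). Tgfb3, a TGF-beta ligand, was 1.51-fold higher, with 1 CIH 12W aorta (12.78) inside the recovered range of 12.42 to 12.81. Fstl1, a secreted follistatin-like protein, was 1.20-fold higher but not called after quantile normalization, and Fstl3 was not called once any 1 of 5 arrays was left out.

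Among 27 matrix proteases and inhibitors, 4 (14.8%, against 2.96% of all genes) were called higher and 0 lower. All 4 were ADAMTS proteases, which cut matrix proteoglycans. The list median was 0.20, and 24 of 27 had a positive difference. Adamts9 read 7.93, 7.97, 8.00 and 8.42 in CIH 12W and 7.14, 7.0, 7.01 and 6.92 after recovery. The groups did not overlap (2.08-fold, log2 1.06 ± 0.32, adjusted p = 0.443), and the call held with every array left out in turn. Adamts8 was 2.05-fold higher but not called without the second CIH 12W array (log2 0.84), while Adamts15 and Adamts5 were lost under 6 and 5 of the 8 arrays left out. The matrix metalloproteinases of the list were not called.

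Of 52 measured genes of ribosome assembly and RNA binding, a list drawn up after the values were seen, 13 (25.0%) were called higher, 0 lower and 39 not called, with a median of 0.08. The number ran from 9 to 15 when 1 array was left out, and 7 of the 13 were called whichever array it was. After quantile normalization it was 8, with 2 lower. Rbm28, a nucleolar protein of the large subunit's assembly, read 7.35, 7.55, 7.26 and 7.34 against 7.01, 6.96, 6.95 and 7.07 (1.30-fold, log2 0.38 ± 0.07, adjusted p = 0.103). Rbm45, an RNA-binding protein, read 9.01, 9.31, 9.01 and 9.28 against 8.65, 8.39, 8.76 and 8.56 (1.48-fold, adjusted p = 0.103). Neither gene overlapped between the groups. Heatr1, Utp20 and Wdr75 of the small subunit processome were 1.37-fold, 1.26-fold and 1.24-fold higher. Of 19 cytosolic aminoacyl-tRNA synthetases, which charge tRNAs, 2 were called higher (Farsa, log2 0.27, and Cars, log2 0.23, the latter not without the first or second CIH 12W array) and 0 lower, and of 23 ribosomal proteins and elongation factors only Rpl8 was called (log2 0.32). Dhx29, a helicase that helps ribosomes scan structured leaders, read 8.01, 8.16, 8.17 and 8.21 against 7.71, 7.76, 7.67 and 7.67 (1.35-fold, adjusted p = 0.122), again with a gap between the groups.

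**Figure D4:**
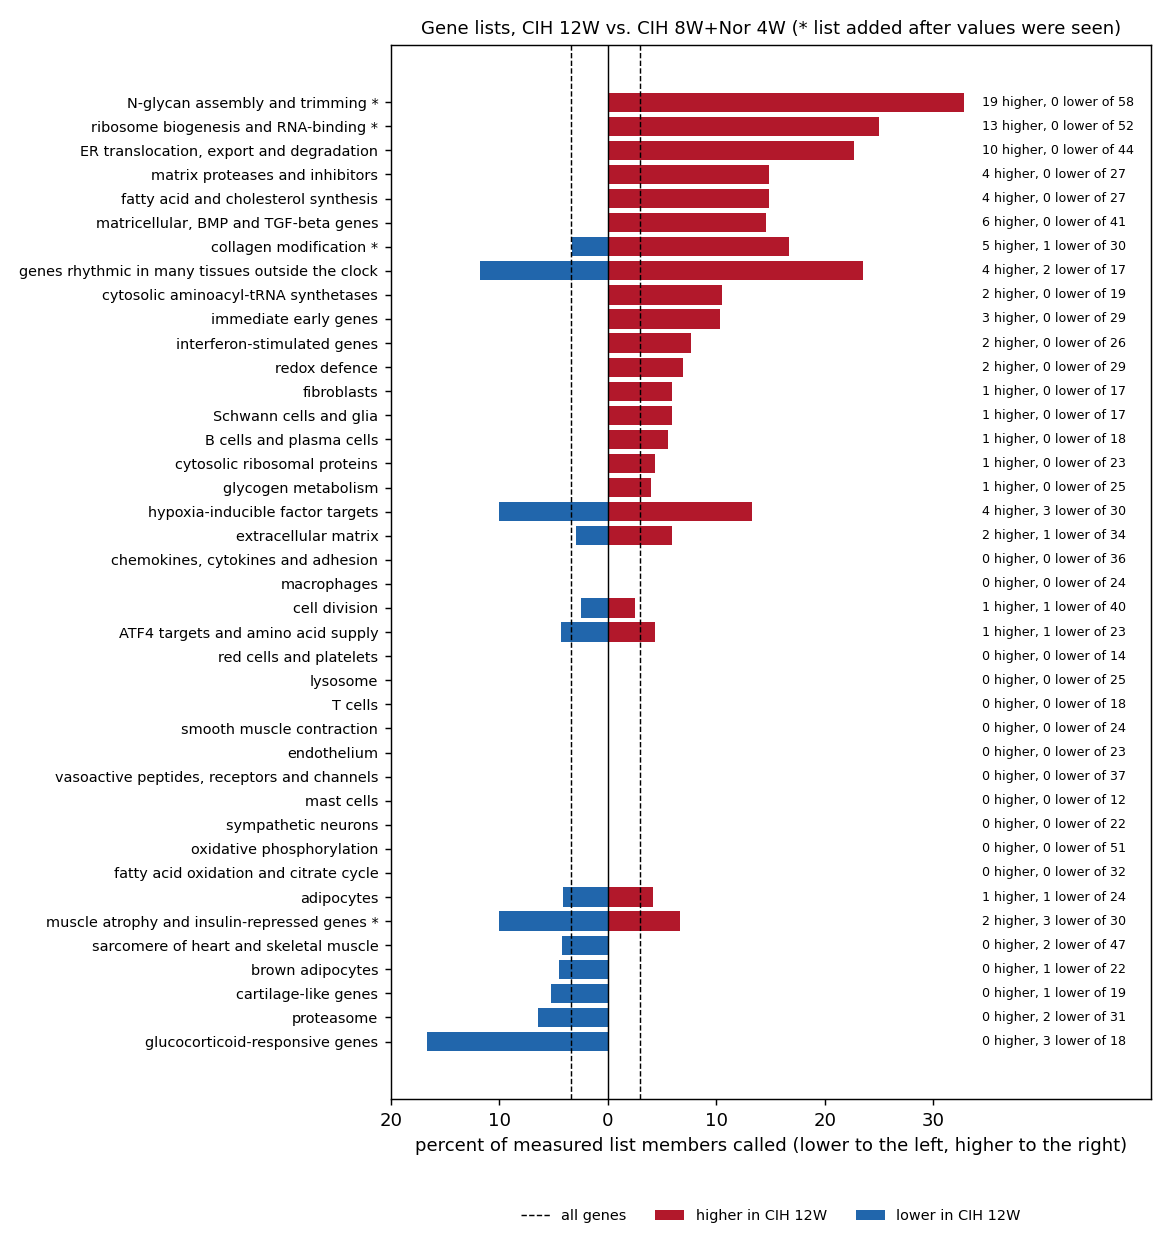
Percent of the measured members of each gene list that were called higher (right) or lower (left) in CIH 12W, with the numbers beside the bars; the dashed lines mark all genes, at 2.96% higher and 3.42% lower, and asterisks mark the 4 lists added after the values were seen. The secretory and ribosome lists reach 22.7% to 32.8% on the right with none on the left. Among these, the N-glycan and ribosome lists are added ones, so their rank is not a test. The bars of most cell type lists are empty.

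Direct targets of the hypoxia-inducible factors, which oxygen-dependent prolyl hydroxylases keep in check, went both ways. Of 30 measured, 4 (13.3%) were called higher and 3 (10%) lower, against 2.96% and 3.42% of all genes. The list median was -0.05. Higher were P4ha1, P4ha2, Ndrg1 and Adm, the gene of the vasodilator adrenomedullin, and lower were Egln3, Narf and Ankrd37, which was not well above background on any of the 8 arrays. Adm was 1.97-fold higher without overlap, but its call was lost under 6 of the 8 arrays left out, and that of Narf under 2. Egln3, a prolyl hydroxylase that is itself a target, read 6.09, 6.14, 6.48 and 5.84 in CIH 12W and 7.25, 6.71, 6.72 and 6.59 after recovery. The groups did not overlap, and the fold was 1.61 in favour of recovery (log2 -0.68 ± 0.21, adjusted p = 0.472). Ndrg1 read 12.90, 13.07, 12.90 and 12.82 against 12.18, 12.66, 12.45 and 12.18 (1.47-fold higher, not called without the first or the fourth recovered array). Vegfa and Slc2a1, the genes of the angiogenic factor and of the glucose transporter, had log2 differences of -0.12 ± 0.26 and 0.30 ± 0.24 and were not called.

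Among the lower genes without overlap, Tcap (chromosome 11), which caps titin at the Z-disc of striated muscle, differed by the widest margin of those named here. It read 7.38, 6.00, 6.45 and 6.36 in CIH 12W and 10.75, 10.15, 10 and 8.21 after recovery. The groups did not overlap (9.40-fold lower, log2 -3.23 ± 0.57, adjusted p = 0.0601), and the means in Nor 8W, CIH 8W and Nor 12W were 7.41 ± 0.45, 7.17 ± 0.92 and 8.05 ± 1.01. Of 47 sarcomere genes of heart and skeletal muscle, 0 were called higher and 2 lower, Tcap and Myl3, the latter not well above background on any of the 8 arrays. The list's level was 4.85, 4.72, 4.82 and 5.62 in CIH 12W and 6.03, 4.97, 5.12 and 5.09 after recovery, so that the arrays overlapped. Acta1 and Ckm, both abundant in striated muscle, had log2 differences of -0.33 ± 0.29 and -0.40 ± 0.36. The part of striated muscle in the Tcap difference was not tested.

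Dusp14, a phosphatase of MAP kinases, had narrow groups. It read 6.64, 6.61, 6.57 and 6.67 in CIH 12W and 7.09, 7.11, 7.13 and 7.13 after recovery (1.41-fold lower, log2 -0.49 ± 0.09, adjusted p = 0.0790). The means of Nor 8W, CIH 8W and Nor 12W, 6.65, 6.58 and 6.60, lay with CIH 12W. Gpcpd1, which splits glycerophosphocholine, read 9.25, 9.07, 9.71 and 9.21 against 10.40, 10.56, 10.36 and 10.13, without overlap (2.07-fold lower, adjusted p = 0.100). Calcrl, the receptor that binds adrenomedullin and calcitonin gene-related peptide, read 11.17, 11.34, 11.22 and 11.54 against 11.82, 11.82, 12.08 and 12.14 (1.56-fold lower, adjusted p = 0.174). Its groups did not overlap, and the means in Nor 8W, CIH 8W and Nor 12W were 11.38, 11.70 and 11.85. The calcium channel gene Cacna1d, the Hippo pathway gene Mob1b, the torsin cofactor Tor1aip2 and the ubiquitin-conjugating enzyme Ube2d2a were lower in CIH 12W without overlap. The log2 margins were 0.57, 0.27, 0.29 and 0.27, although the other probe set of Ube2d2a was at -0.03. In Nor 8W, CIH 8W and Nor 12W, Cacna1d stood at 5.96, 5.91 and 5.82, nearer to CIH 12W (5.81) than to recovery (6.38). So did Mob1b (8.04, 8.11 and 8.09, against 8.02 and 8.29) and Ube2d2a (12.29, 12.41 and 12.35, against 12.345 and 12.61). Tor1aip2 stood at 7.08, 7.22 and 7.19, between CIH 12W (7.07) and recovery (7.365). Efhc2, 3425401B19Rik and the adipocyte-listed Nnat had log2 differences of -1.05, -1.05 and -0.91, the last above background on 1 of the 4 CIH 12W arrays and not called without the second CIH 8W+Nor 4W array (log2 -0.69).

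Of 18 glucocorticoid-responsive genes, 0 were called higher and 3 (16.7%) lower: Klf9, Klf15 and Per1, the last also a clock gene. Over all genes, 3.42% were called lower. The list median was -0.10. Klf9, a Kruppel-like transcription factor, read 12.19, 11.09, 11.96 and 11.81 in CIH 12W and 13.01, 12.55, 12.89 and 12.28 after recovery, without overlap (1.89-fold lower, log2 -0.92 ± 0.26, adjusted p = 0.389). Klf15 had overlapping groups, and its call was lost under 7 of the 8 arrays left out. Fkbp5 and Tsc22d3, the most used glucocorticoid reporters, were not called. Of 30 genes of muscle atrophy and insulin repression, listed after the values were seen, 2 were called higher (Nprl2 and Pik3r1, the latter lost under 6 of 8 arrays left out) and 3 lower (Fbxo32, Pdcd4 and the Klf15 already counted above), with a median of -0.07. Fbxo32, the ubiquitin ligase atrogin-1, read 11.84, 10.92, 11.42 and 11.38 against 12.31, 12.26, 12.39 and 12.08 (1.83-fold lower, adjusted p = 0.476). Pdcd4, an inhibitor of translation, read 13.98, 13.56, 13.78 and 13.44 against 14.66, 14.60, 14.52 and 14.39 (1.81-fold lower, adjusted p = 0.244). Neither gene overlapped. Nprl2, a subunit of the complex that holds the growth kinase mTORC1 in check, was higher, from 6.77, 6.99, 6.83 and 6.76 against 6.47, 6.04, 6.29 and 6.22 (1.5-fold, adjusted p = 0.103).

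Of 17 genes that cycle in many tissues but lie outside the core clock, 4 (23.5%) were called higher and 2 (11.8%) lower. Over all genes the shares were 2.96% and 3.42%. The list median was -0.10. With 1 array left out, 2 to 4 were higher, the lowest count without the fourth CIH 12W array or the first or second recovered one, and 1 to 4 were lower, the highest count without the first CIH 12W array. Of the 4 higher genes, Fmo2 (a monooxygenase) was lost under 6 of 8 arrays left out and Dtx4 (a ubiquitin ligase of the Deltex family) under 4. Beside Coq10b, the focal adhesion gene Tns2 was lower (log2 -0.63 ± 0.27), and it was not called under 5 of 8 arrays left out. Leo1, a subunit of the Paf1 transcription complex, read 7.87, 8.69, 8.60 and 8.85 in CIH 12W and 7.26, 7.16, 7.40 and 7.83 after recovery. Lonrf3, a ring finger protein, read 6.47, 6.56, 6.26 and 6.96 against 5.67, 5.83, 5.90 and 6.04. Both were apart between the groups, Leo1 by 2.13-fold (adjusted p = 0.244) and Lonrf3 by 1.63-fold (adjusted p = 0.476). The core clock itself, 21 genes, had 5 called higher and 9 lower. The part of the clock, or of the hour of collection, in these differences was not tested.

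Of 27 genes of fatty acid and cholesterol synthesis, 4 (14.8%, against 2.96% of all genes) were called higher and 0 lower, with a median of 0.19. The count was 9 without the third CIH 12W array and 1 without the fourth, and it was 2 without the second array of either group, without the fourth recovered array or after quantile normalization. Acly, which makes cytosolic acetyl-CoA, read 10.17, 11.48, 9.22 and 11.62 in CIH 12W and 9.37, 9.31, 9.41 and 9.02 after recovery. The second and the fourth CIH 12W aortas were high and the third lay inside the recovered range, so that the groups overlapped (2.54-fold, log2 1.35 ± 0.43, adjusted p = 0.476). Fasn, the fatty acid synthase, was likewise high in the second and the fourth, 12.36, 14.13, 10.93 and 13.33 against 11.77, 11.14, 11.95 and 10.38, and was not called (log2 1.38 ± 0.76). Pnpla3, a lipase that rises with lipid synthesis, lost its call without the fourth CIH 12W array (log2 0.73), and only 1 of the 4 calls, Acly, held whichever array was left out. The mean of Acly was 11.30 ± 0.52 in Nor 12W, above CIH 12W, and 9.36 ± 0.72 and 9.01 ± 0.21 in Nor 8W and CIH 8W.

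Oxidative genes gave no call. Of 32 genes of fatty acid oxidation and the citrate cycle, 3 had a positive difference, with a median of -0.23, and 0 were called in either direction. With the 8 arrays alone 5 were called lower, with the replicate block 2, and with 1 array left out 0 to 2, the latter without the second recovered array. The list's level was 10.98, 11.10, 10.96 and 10.72 in CIH 12W and 11.55, 10.78, 11.42 and 11.07 after recovery. The second and the fourth recovered aortas lay inside the CIH 12W range. The adipocyte and brown adipocyte lists had medians of -0.32 and -0.24, with brown adipocyte levels of 6.13 to 6.77 in CIH 12W and 6.34 to 7.54 after recovery, and the second recovered aorta was the lowest of its group on both. Of 24 adipocyte genes, 1 was called higher (Lep, log2 0.72, with overlap) and 1 lower (Nnat). Lep was above background on 2 of the 4 CIH 12W arrays and on 0 recovered ones. Neither call held whichever array was left out. Ucp1, the uncoupling protein of brown fat, read 9.94, 10.25, 13.61 and 7.48 against 15.37, 11.22, 15.76 and 14.13, with overlap, and its call was lost without the fourth CIH 12W array (log2 -2.85). The part of fat in these values was not tested. Of 51 genes of oxidative phosphorylation, 0 were called (1 higher and 2 lower with the 8 arrays alone), and the median was -0.04.

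Inflammatory and cell type lists gave few calls. Of 24 macrophage genes, 0 were called in limma (0 also at an unadjusted p under 0.05), with a median of 0.18 and levels of 11.32, 10.84, 10.83 and 11.07 in CIH 12W and 10.33, 10.86, 10.72 and 11.29 after recovery, which overlap. The median was -0.01 without the first recovered array and 0.35 without the fourth, and 0.04 without the first CIH 12W array, and 2 were called higher with the 8 arrays alone. Of 36 chemokines, cytokines and adhesion genes, 0 were called (0 to 2 with 1 array left out and 0 to 3 under the other settings), with a median of 0.24. Ccl2, the monocyte chemoattractant, read 6.47, 8.12, 6.47 and 7.15 against 5.68, 6.36, 5.64 and 6.43 and was not called although the groups did not overlap (log2 1.03 ± 0.52). Of 26 interferon-stimulated genes, 2 were called higher (Cmpk2 and Oas2), and the calls were lost under 5 and 4 of the 8 arrays left out. Smooth muscle (24 genes), endothelium (23), T cells (18), mast cells (12), lysosome (25), sympathetic neurons (22), vasoactive genes (37) and red cells and platelets (14) had 0 called, with medians between -0.03 and 0.07, and at most 3 were called in either direction under any alternative. Of 17 fibroblast genes 1 was called higher (Mfap5, a microfibril protein, log2 0.51, lost under 5 of 8 arrays left out). Of 17 Schwann cell and glia genes 1 was called higher, Ptprz1, a receptor phosphatase. It read 13.57, 14.21, 13.99 and 14.22 against 12.10, 12.89, 12.19 and 12.96, without overlap (2.76-fold, adjusted p = 0.384), while the glial markers Sox10 and Mbp had log2 differences of -0.04 and -0.03.

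Other bright genes with large differences and groups that did not overlap were the membrane protein gene Mall (2.15-fold higher), the RhoGAP gene Arhgap20 (2.10-fold) and 2310022B05Rik (2.16-fold). Myl12a, a regulatory light chain of myosin II, was 1.46-fold higher (log2 0.55 ± 0.10, adjusted p = 0.103). Of 29 redox genes 2 (6.9%, against 2.96% of all genes) were called higher, Gstt1 and Gsta3, which conjugate glutathione. Gstt1 read 11.51, 10.77, 10.50 and 11.32 against 10.29, 10.22, 10.06 and 10.10, without overlap (1.81-fold), and Gsta3 overlapped. Of 40 cell division genes 1 was called higher (Haus8) and 1 lower (Cdc25b), with a median of 0.17 and 30 positive differences. The count of higher cell division genes was 12 with the 8 arrays alone, 7 with array weights and 4 with centred arrays, and 1 to 3 with 1 array left out, the last without the third CIH 12W or the fourth recovered array. Of 29 immediate early genes, 3 were called higher (Ier5, Fosl2 and Fosb), all with overlapping groups and Ier5 above background on 1 of the 8 arrays, and of 25 glycogen genes 1, Ppp1r3b (log2 0.72 ± 0.21, adjusted p = 0.416), a subunit that directs a phosphatase to glycogen. Of 19 cartilage-like genes 1 was called lower, Chad, which was not well above background on any of the 8 arrays.

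Among non-coding genes above background and without overlap, 47 were called higher and 30 lower, most of them pseudogenes (34 and 19), whose signal cannot be told apart from that of the genes they derive from. The lncRNA 1110002L01Rik read 6.50, 6.77, 6.66 and 6.78 in CIH 12W and 6.27, 6.25, 6.37 and 6.37 after recovery (1.29-fold, adjusted p = 0.150). The brightest named pseudogene, Gm8355, read 18.27, 18.14, 17.86 and 18.44 against 17.27, 17.30, 17.21 and 17.31. It was 1.87-fold higher without overlap (log2 0.91 ± 0.20, adjusted p = 0.172). Gm9762, Gm4899, Gm10052 and Gm11488 were lower in CIH 12W by 0.39, 0.84, 0.45 and 0.75 on the log2 scale. Hspe1-ps5, named for Hspe1 of the excluded cytosolic chaperone list, was higher by 0.74.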

How the data were processed

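Total RNA of aortas was hybridized to Clariom D mouse arrays (Affymetrix). The authors deposited log2 signals per probe set, already normalized; Affymetrix Expression Console is named in the submitters' notes while the study's methods name Transcriptome Analysis Console for the normalization, which of them made these values and the summary method are not given in the sources used here, and the raw scans were not used here. Of 72688 probe sets, 6732 control probe sets were left out and 65956 gene-level ones kept, of which 30646 had 1 gene symbol, 2168 several and 33142 none in the platform annotation. The number of arrays limits the precision.

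A model with a mean for each of 5 groups over the 23 arrays was fitted with limma 3.58.1 in R 4.3.3, and CIH 12W was contrasted with CIH 8W+Nor 4W. All p-values are moderated and two-sided, adjusted (Benjamini-Hochberg) over all 65956. A call needed a fold over 1.1 and p under 0.05, the cutoffs of the study's methods. Those methods name a moderated F-statistic over several groups, whereas p here is that of the contrast. Above background means above the 95th percentile of 23 background probe sets on that array. Nothing states whether RNA was pooled; p-values measure the spread between these samples. The fit was tested on simulated data. Python 3.11.15, pandas 2.3.3, numpy 2.4.6 and matplotlib 3.10.9 were used for lists and plots.

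Genes were named by rule: probe sets with 1 symbol at an adjusted p under 0.05, the 12 higher and 12 lower bright protein-coding ones of smallest p without overlap, the 6 largest differences each way, up to 4 called members of each list and 4 non-coding genes each way. Groups without overlap were a condition for the genes of smallest p, of largest difference and the non-coding ones. For them the absence of overlap is therefore no further result. The groups, lists and members were chosen with earlier results of these data known. The 4 lists on N-glycans, collagen modification, ribosome biogenesis and atrophy, the ER stress element, and the genes named outside the rule were chosen after their values were seen. Alternatives were array centring, quantile normalization, array weights, trended and robust moderation and the 8 arrays alone. A filter on dim probe sets, a replicate block and each array left out were run as well. For the counts of called probe sets only, a stricter fold and a moderated F-statistic over the 5 groups were also used.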

Additional observations from a re-analysis of the deposited data

Results flagged for a closer look

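In 17 of 262 groups of 4 arrays tested (6.49%), 1 array stood far from the other 3 in its group, where chance gives about 1 in 20. In CIH 12W, the fourth aorta was high for Coq10b (9.25, others 8.67 to 8.76) and Adamts9 (8.42, others 7.93 to 8.00) and low for Mall (8.33, others 9.37 to 9.41). The first was high for Ccn5 (11.28) and low for 2310022B05Rik (9.48), the second was low for Mfap5 (14.07), and the third was low for Sel1l (12.26) and Pmvk (5.41). In CIH 8W+Nor 4W, the first aorta was high for 2310022B05Rik (9.25), Rpn1 (13.28) and Sel1l (12.18), and the third was low for Sec23b (9.07).

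Among mean levels of gene lists, the T cell list was high in the first CIH 12W aorta (4.79). The sarcomere list was high in the fourth CIH 12W aorta (5.62, others 4.72 to 4.85) and in the first recovered aorta (6.03, others 4.97 to 5.12). The extracellular matrix list was high in the first recovered aorta (12.07), and the list of muscle atrophy and insulin-repressed genes was low in the second CIH 12W aorta (8.94).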

How the results depend on the processing

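Of the 88 named genes, 62 kept direction and call under every alternative fit that held them, 26 lost the call under at least 1 and 0 reversed. The stricter fold was not applied in this count, and named genes with a fold under 1.5 would lose the call under it. The 1606 higher and 2569 lower probe sets became 2669 and 1267 with centred arrays, 1038 and 566 without dim probe sets and 203 and 127 at a fold over 1.5. They were 2239 and 2292 with the p of the moderated F-statistic in place of that of the contrast. With the 8 arrays alone, 2556 were higher. With 1 array left out they ranged from 1304 to 2089 and from 1837 to 3926, the last without the first CIH 8W+Nor 4W array. The 12 probe sets at an adjusted p under 0.05 became 61 with array weights, 6 with centring, 6 with quantile normalization, 7 with trended and robust moderation and 0 with the 8 arrays alone, and 0 to 33 with 1 array left out (33 without the first CIH 12W array, 0 without the second of either group). At an unadjusted p under 0.05 stood 4513 in limma. The 3363 probe sets whose 4 CIH 12W arrays lie wholly on one side of the 4 CIH 8W+Nor 4W arrays became 1802 without dim probe sets and 4929 to 7119 with 1 array left out, as fewer arrays must separate. The cause of the other shifts was not tested. Medians ranged with 1 array left out from -0.2074 to 0.01577 for rhythmic genes, from 0.02073 to 0.1036 for ATF4 targets and from 0.09361 to 0.184 for collagen modification. The median of tRNA synthetases was 0.1554 with centring, and that of Schwann cell genes 0.01576 with centring and 0.01533 with quantile normalization. With the replicate block, 1756 were higher, 2596 lower and 20 at an adjusted p under 0.05. Same-numbered arrays correlated at 0.04396, 0.1546, 0.03129 and -0.04203, so the numbers do not establish a pairing. Dim probe sets lie near background, and leaving them out removed more lower than higher calls.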
